A study of Mus musculus with 12 samples.

Results

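The 37 genes described here encode the subunits of respiratory complex I that are made from nuclear genes. They are the protein-coding genes whose symbols are Nduf followed by a, b, c, s or v and a number, together with Ndufab1, and they make up 37 of the 54532 genes in the deposited table. By textbook role they fall into 7 core subunits, 9 accessory subunits of the matrix arm, 20 accessory subunits of the membrane arm, and Ndufa4, which carries the family name but is now assigned to complex IV. Ndufb1-ps, annotated in the table as a long non-coding RNA, falls outside the rule. All 37 passed the filter on low values in every comparison. The RNA was taken from E12.5 mouse limb buds, in 4 groups of 3 libraries, which the labels call biological replicates. The cKO embryos were labelled as knockouts with both Mettl14 alleles floxed (Mettl14 flox/flox), and the cHet embryos, the controls, carried a wild-type and a floxed allele (Mettl14 wt/flox). From the cytoplasmic lysate of each genotype the study sequenced polysome RNA, purified on a sucrose gradient, and the cytoplasmic RNA that had been loaded on it, called input. The sources used here do not give the Cre driver, the deleted exons, the strain or how many embryos went into a lysate. The p-values below measure the spread between these libraries only.

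Complex I oxidises NADH, passes the electrons along iron-sulfur clusters to ubiquinone, and pumps protons across the inner mitochondrial membrane. Its matrix arm carries the electron path and its membrane arm the proton pumps. The nuclear core subunits sit in the matrix arm, the mitochondrial genome encodes the core of the membrane arm, and many small accessory subunits surround both, so that assembly draws on cytoplasmic and mitochondrial translation. Polysomes are mRNAs carrying several ribosomes, and the level of an mRNA on polysomes over its level in the input is a common measure of how much of it is being translated. The Mettl14 protein pairs with Mettl3 in the enzyme that places N6-methyladenosine on RNA.

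Levels are given as FPKM, fragments per length of gene model and per library size as the authors scaled them, and differences as log2 of FPKM + 0.1. Changes were called by limma, two-sided, where the p adjusted by Benjamini and Hochberg over every gene tested was under 0.05, and adjusted p-values below are of this kind. Members and genes counted as higher or lower on polysomes are those called, unless the sentence states another basis. Assigned reads per library ran between 10349912 and 30068823, and a complex I member had between 224 and 8239 reads in a library. Mettl14 had 2.73, 2.81 and 3.29 FPKM in cKO polysomes against 2.83, 3.07 and 3.02 in cHet polysomes, and 2.60, 3.32 and 1.26 FPKM in cKO input against 4.09, 4.03 and 4.04 in cHet input. It was lower in every cKO input library than in every cHet input library, and the genotypes overlapped on polysomes. A pair of cKO libraries stood apart from the rest. In a principal component analysis of 13610 genes, cKO input replicate 3 lay at -63.0 on the second component, against 0.49 to 22.5 for the other input libraries, and cKO polysome replicate 1 at 3.97 on the first, against 35.5 to 53.8 for the other polysome libraries. Limb mesenchyme markers (Prrx1, Tbx5, Hoxd13 and others, 10 of 10 detected) summed to 975 to 1157 FPKM in cKO input and 710.2 to 858 FPKM in cHet input, and to 1259 to 1754 FPKM in cKO polysomes and 1291 to 1479 FPKM in cHet polysomes, where the genotypes overlapped.

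Short stretches at the start of these mRNAs are shown first, because 7 of the 33 members with a promoter window in RefSeq (GRCm38.p6) hold AAGATGGC on their own strand within 50 bases after the start site. This octamer is the core of a YY1 site in DNA and of a translation initiator element described for mRNAs with short leaders. Of all 27025 genes with a window, 1.04% hold it there, against 21.2% of the members. These genes were not filtered for protein-coding type or expression, so they are not a set matched to the members. In each of the 7 the ATG inside the octamer is the annotated start codon of the principal transcript in GENCODE M21. The octamer begins 22 to 38 bases after the RefSeq start. The GENCODE start of that transcript lay 0 to 328 bases from the RefSeq start, furthest in Ndufs7 (328) and Ndufs4 (164). The distance from start site to start codon therefore depends on the annotation. Capitals mark the octamer.
Ndufa3 (chr7:3617384-3617405, + strand): ccgccaagaacAAGATGGCcgg
Ndufa9 (chr6:126849105-126849126, - strand): cattgtgggagAAGATGGCggc
Ndufb8 (chr19:44555394-44555415, - strand): cggagaaggtgAAGATGGCtgc
Ndufc1 (chr3:51408923-51408944, - strand): gcctgcggaacAAGATGGCgcc
Ndufs4 (chr13:114388049-114388070, - strand): ttgcctacaggAAGATGGCggc
Ndufs6 (chr13:73328439-73328460, - strand): gggtcaccggcAAGATGGCggc
Ndufs7 (chr10:80249462-80249483, + strand): aggccgaggccAAGATGGCggc
The 7 are a core subunit, membrane arm accessories and matrix arm accessories, so the octamer followed no one arm of the complex.

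The motif of NRF1, a transcription factor known to drive many nuclear genes of the respiratory chain, was searched around the RefSeq start. It was read on both strands, as GCGCA, any base, GCGC, or its reverse complement, in the same windows (250 bases before to 50 after). It was present in 7 of the 33 members (21.2%) and in 5.19% of the same 27025 unfiltered genes. Of these members, 5 had a match beginning within 60 bases before the RefSeq start. In these 5 the GENCODE start of the principal transcript lay 5 to 323 bases from the RefSeq start. It lay furthest in Ndufa5, whose match falls inside its annotated gene. The Ndufs6 match, 16 bases before the RefSeq start, also falls inside the annotated transcript, whose GENCODE start lay 60 bases away. The GENCODE starts of Ndufa8 and Ndufb4 lay 68 and 85 bases from the RefSeq start, so their matches may also lie inside. The matches are shown here in capitals.
Ndufa11 (chr17:56717692-56717721, + strand): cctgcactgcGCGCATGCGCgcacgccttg
Ndufa5 (chr6:24527697-24527726, - strand): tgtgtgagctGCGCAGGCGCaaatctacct
Ndufa8 (chr2:36049349-36049378, - strand): ctagagcagtGCGCTTGCGCgtcgctggag
Ndufb4 (chr16:37654371-37654400, - strand): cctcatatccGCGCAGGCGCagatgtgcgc
Ndufs6 (chr13:73328479-73328508, - strand): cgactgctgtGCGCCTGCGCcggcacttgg
All 5 are accessory subunits, as are most of the 37 members (9 of the matrix arm and 20 of the membrane arm). Matches for GABPA (CCGGAAG, both strands) were present in 4 of 33 members (12.1%) and 9.93% of genes, and for ESRRA (AAGGTCA, both strands) in 3 of 33 (9.09%) and 5.38%. A match describes the letters only.

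Complex I mRNAs covered a wide range of levels. Ndufa2, a small matrix arm subunit of thioredoxin-like fold, had the highest mean over all libraries at 273 FPKM, followed by Ndufa1, a short membrane arm subunit, and Ndufb11, a membrane arm subunit encoded on the X chromosome, both at 168 FPKM. The lowest were Ndufb2, a membrane arm accessory, at 3.07 FPKM, Ndufs1 at 5.13 FPKM and Ndufab1, the mitochondrial acyl carrier protein, at 9.68 FPKM. A long gene model lowers this unit. The deposited gene models are 5628 bases for Ndufb2, 8086 for Ndufs1 and 6883 for Ndufab1. Of the 37 models, 9 are at least 2 times as long as the principal mRNA. Those of Ndufs1 and Ndufa4 are among the 9, and those of Ndufb2 and Ndufab1 are not. The part of model length in these levels was not tested. Within a group the members varied more between cKO libraries than between cHet libraries. The median coefficient of variation was 20.6% on cKO polysomes against 7.45% on cHet polysomes, and 16.6% in cKO input against 3.64% in cHet input. The member with the widest spread was Ndufa12, an accessory subunit of the matrix arm, which had 14.6, 41.4 and 21.2 FPKM in cKO input and 14.7, 14.9 and 16.1 FPKM in cHet input. Its high value came from cKO input replicate 2. On polysomes, cKO libraries had 26.2, 39.2 and 37.3 FPKM and cHet libraries 26.6, 24.3 and 28.9 FPKM.

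**Figure D1:**
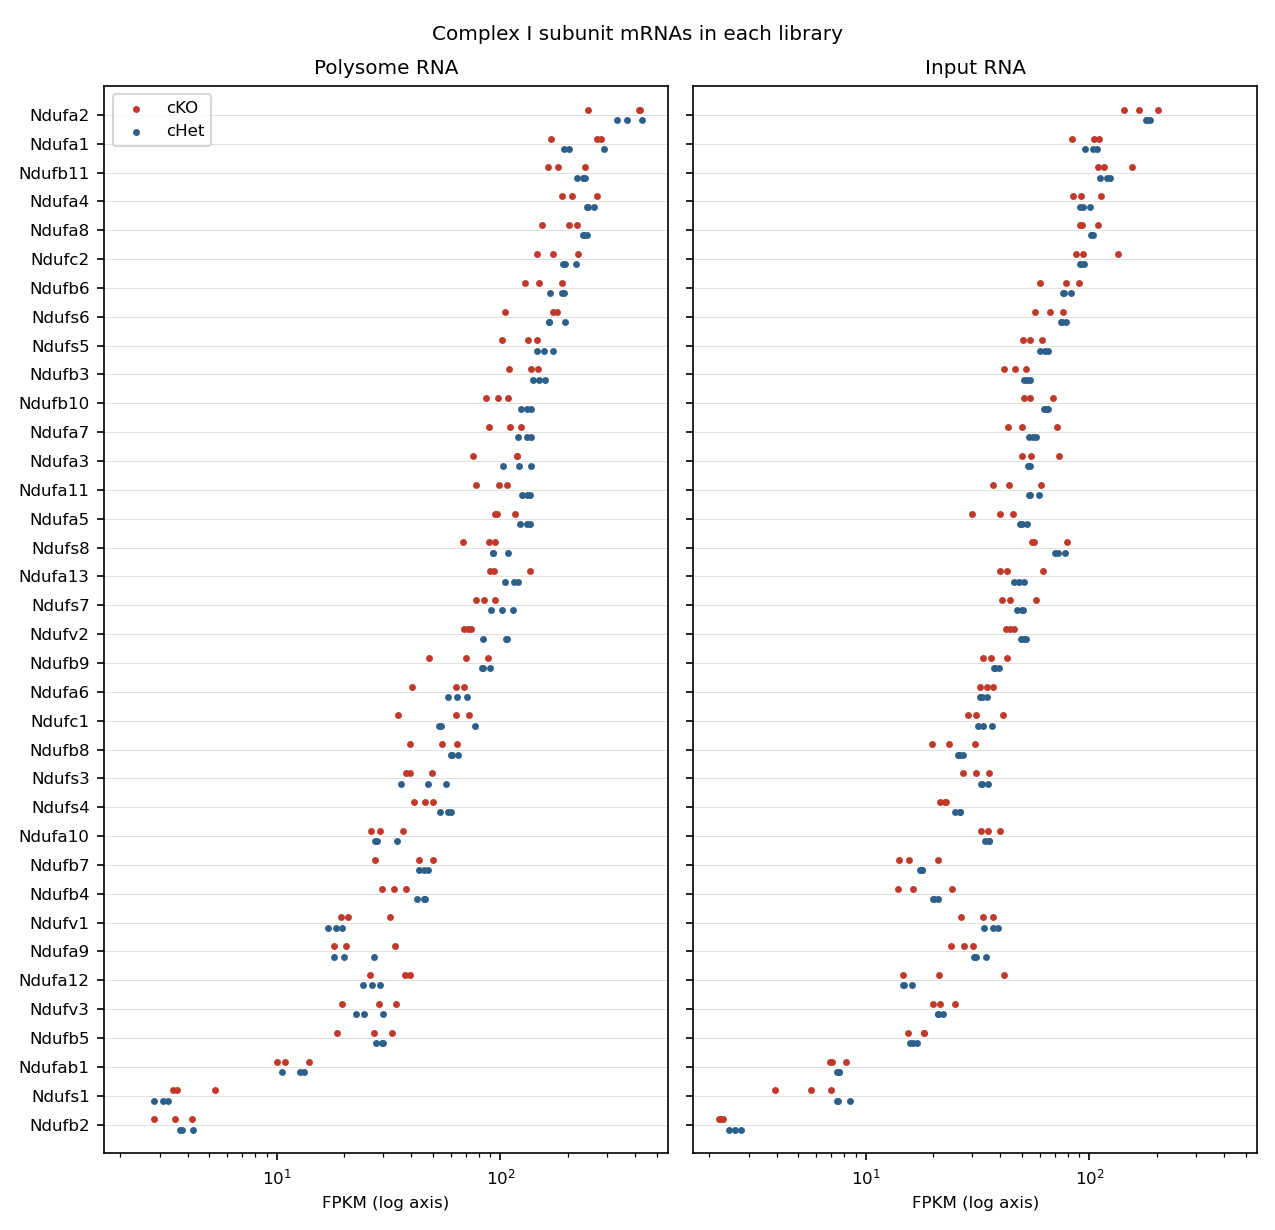
FPKM of complex I members (rows, ordered by mean over all libraries) in the 3 cKO and 3 cHet libraries of polysome RNA (left) and input RNA (right), on a log axis; each point is a library. Levels run from Ndufb2 (mean 3.07 FPKM) to Ndufa2 (mean 273 FPKM), and most rows sit further right in the polysome panel.

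Relative to other genes, most complex I mRNAs were higher on polysomes than in the input in both genotypes. The deposited values were already scaled across libraries, so they do not give the amount of an mRNA on polysomes. In cKO, 28 of 37 members were higher on polysomes, where 16.9% of the 13610 genes tested were, and 0 were lower, where 15.6% were. In cHet, 29 were higher, where 27.3% of genes were, and 3 were lower, where 25.9% were. By limma 1 member was lower in cKO at an unadjusted p under 0.05 (Ndufv1), and voom on recovered reads called 0 lower there. The median member was 0.81 higher on the log2 scale in cKO and 1.05 higher in cHet, beside 0.06 and 0.02 over all genes tested. The 28 members higher in cKO were among the 29 higher in cHet. Summed over the 37 members, cKO polysome libraries held 2910, 3510 and 3982 FPKM against 1675, 1809 and 2158 FPKM in cKO input, and cHet polysome libraries 3941, 4020 and 3877 FPKM against 1910, 1978 and 1978 FPKM in cHet input. Every polysome library lay above every input library. Scaling to protein-coding genes moved the split over all genes to 1686 higher and 2704 lower in cKO (2306 and 2118 as deposited) and 2471 and 4578 in cHet (3717 and 3525), and gave 27 members higher and 1 lower in cKO, and 27 higher and 5 lower in cHet. The members took 0.396% to 0.509% of reads in polysome libraries and 0.227% to 0.290% in input libraries. In bulk RNA, fewer cells of a type and less RNA per cell cannot be told apart.

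The 20 membrane arm accessories gave the most even result, with 19 called higher on polysomes in each genotype and none called lower. The exception was Ndufa10, a subunit related to deoxyribonucleoside kinases, at -0.24 in cKO and -0.23 in cHet (log2, adjusted p = 0.242 and 0.218). Ndufb3 (chr1:58586384-58595964, mm10), a small accessory of the membrane arm, had the largest difference of all members in both genotypes. It had 109, 138 and 148 FPKM on cKO polysomes against 52.3, 46.6 and 41.7 FPKM in cKO input, and 149, 159 and 141 FPKM on cHet polysomes against 51.2, 54.5 and 52.8 FPKM in cHet input. Neither pair of groups overlapped, and the log2 differences were 1.48 ± 0.14 in cKO and 1.498 ± 0.14 in cHet (SE, n = 3 libraries a group, adjusted p = 9.37e-05 and 7.71e-05 by limma).

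Ndufs5 and Ndufb7, accessory subunits on the intermembrane space side that carry paired cysteine motifs, were also among the members that rose most. Ndufs5 had 101, 132 and 145 FPKM on cKO polysomes against 50.2, 54.2 and 61.4 FPKM in cKO input, and 146, 171 and 157 FPKM on cHet polysomes against 59.8, 63.6 and 65.2 FPKM in cHet input. All polysome values exceeded all input values, by 1.18 in cKO and 1.33 in cHet on the log2 scale (adjusted p = 0.000462 and 0.000106). Ndufb7 differed by 1.23 in cKO and 1.35 in cHet (adjusted p = 0.00162 and 0.000358). Ndufa1 differed by 1.25 and 1.14, Ndufa13, known also as GRIM-19, by 1.14 and 1.22, and Ndufb8 by 1.08 and 1.22. Ndufa8 reached 0.96 in cKO and 1.21 in cHet, and Ndufa11 1.02 and 1.23. The smallest called difference of this arm in cKO was that of Ndufb5, at 0.56 (adjusted p = 0.0309), and in cHet that of Ndufb2, at 0.56 (adjusted p = 0.00807).

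Of the 9 matrix arm accessories, 6 were higher on polysomes in cKO and 7 in cHet, where Ndufa9 was lower. Ndufa5 (chr6:24518666-24528013, mm10) led them. It had 94.2, 96.1 and 116 FPKM on cKO polysomes against 39.8, 45.6 and 29.9 FPKM in cKO input, and 135, 123 and 132 FPKM on cHet polysomes against 49.0, 49.8 and 52.4 FPKM in cHet input. The fractions did not overlap in either genotype, with log2 differences of 1.42 ± 0.16 in cKO and 1.36 ± 0.16 in cHet (SE, n = 3 libraries a group, adjusted p = 0.000238 and 0.000111 by limma). Ndufs6, a zinc-binding subunit, differed by 1.16 and 1.20, Ndufa2 by 1.05 and 1.04, Ndufa7 by 0.99 and 1.21, and Ndufs4, whose loss in mice causes a disease resembling Leigh syndrome, by 1.03 and 1.14. Ndufa12 passed in cHet (0.80, adjusted p = 0.0368) and not in cKO (0.52, adjusted p = 0.188). Ndufv3, an accessory of the NADH-binding module, passed in neither, at 0.27 in cKO and 0.25 in cHet (adjusted p = 0.289 and 0.274).

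Ndufa9, a subunit related to short-chain dehydrogenases, had 33.9, 20.4 and 17.99 FPKM on cKO polysomes against 24.0, 27.6 and 30.02 FPKM in cKO input, and 20.1, 18.02 and 27.1 FPKM on cHet polysomes against 30.3, 31.2 and 34.4 FPKM in cHet input. The cHet fractions did not overlap, while in cKO the highest value of all was that of polysome replicate 1, the library that stood apart. The log2 difference was -0.57 in cHet (adjusted p = 0.0458) and -0.22 in cKO (adjusted p = 0.466). The cHet call was lost without the filter on low values (adjusted p = 0.0965), with the lysate as a block (0.0633) and when leaving out 5 of the 6 cHet libraries in turn (0.0786 to 0.157); without cHet polysome replicate 3 it held (0.0242). It was also lost without cKO input replicate 1, cKO input replicate 2 or cKO polysome replicate 2 (0.0501 to 0.0557). Its start carries the octamer shown above, as do Ndufa3, Ndufb8, Ndufc1, Ndufs4, Ndufs6 and Ndufs7, which were all called higher on polysomes in both genotypes. The median log2 difference of the 7 was 0.86 in cKO and 1.14 in cHet, beside 0.77 and 1.08 for the 26 other members with a window. Ndufa4 had 209, 188 and 270.4 FPKM on cKO polysomes against 84.6, 91.9 and 112 FPKM in cKO input, and 262, 245 and 248 FPKM on cHet polysomes against 93.5, 100.4 and 90.6 FPKM in cHet input. Its fractions stood well apart in both genotypes, by 1.20 in cKO and 1.41 in cHet (log2, adjusted p = 0.000477 and 0.000102), within the range of the complex I members.

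The 7 core subunits did not move together. Ndufs7, which holds the last iron-sulfur cluster before ubiquinone, and Ndufv2, which holds a cluster near the NADH site, were higher on polysomes in both genotypes. Ndufs7 had 77.8, 84.1 and 94.9 FPKM on cKO polysomes against 40.8, 43.9 and 57.7 FPKM in cKO input, and differed by 0.86 in cKO and 1.05 in cHet (log2, adjusted p = 0.00211 and 0.000283). Ndufv2 differed by 0.69 and 0.94 (adjusted p = 0.00241 and 0.000188). Ndufs8, another carrier of iron-sulfur clusters, stood at 0.40 in cKO and 0.41 in cHet (adjusted p = 0.0872 and 0.0610), and Ndufs3, a structural subunit of the arm, at 0.43 and 0.45 (adjusted p = 0.0852 and 0.0501), so neither passed.

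Ndufs1 and Ndufv1 had negative differences. Ndufs1 (chr1:63143596-63176833, mm10), the largest subunit and a carrier of iron-sulfur clusters, had 5.29, 3.44 and 3.58 FPKM on cKO polysomes against 5.72, 6.96 and 3.94 FPKM in cKO input, and 2.83, 3.26 and 3.10 FPKM on cHet polysomes against 7.54, 7.46 and 8.48 FPKM in cHet input. The cHet fractions were far apart and the cKO fractions overlapped, with log2 differences of -1.33 ± 0.21 in cHet (SE, adjusted p = 0.000406) and -0.41 ± 0.21 in cKO (adjusted p = 0.145). On the opposite strand 3 genes overlap Ndufs1, and 15 of the 37 members have such an overlap. The sources used here do not give strand use in counting, so reads of such pairs cannot be told apart. Ndufv1 (chr19:4007497-4012806, mm10), the subunit that binds NADH and its flavin, had 32.0, 20.9 and 19.4 FPKM on cKO polysomes against 26.6, 33.4 and 37.1 FPKM in cKO input, and 18.4, 16.9 and 19.6 FPKM on cHet polysomes against 36.9, 33.7 and 38.8 FPKM in cHet input. Its log2 difference was -0.99 in cHet (adjusted p = 0.00117) and -0.45 in cKO (adjusted p = 0.0869), where polysome replicate 1 lay within the input range.

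Most members that rose have a short coding sequence. Coding length in the principal transcript ranged from 210.0 bases in Ndufa1 to 2181 in Ndufs1, with a median of 435 against 1344 over 11859 protein-coding genes. Of the 27 members under 600 bases, 26 were called higher on polysomes in cKO and 27 in cHet. The 6 members of at least 1000 bases, among them Ndufs1, Ndufv1, Ndufv3, Ndufa9 and Ndufa10, included none that was called higher in either genotype. Across the 37 members, the log2 difference and log10 coding length had a Pearson correlation of -0.82 in cKO and -0.83 in cHet (Spearman -0.70 and -0.62), beside Pearson values of -0.60 and -0.64 across 11859 protein-coding genes. The points share the same 12 libraries and are not independent replicates.

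The members and other genes of the same length can be set side by side. Between 300 and 600 bases, the median log2 difference was 0.97 for 22 members and 0.65 for 1400 protein-coding genes in cKO, and 1.18 and 0.82 in cHet. Between 1000 and 2000 bases, it was -0.22 for 5 members and 0.02 for 4528 genes in cKO, and -0.45 and -0.08 in cHet. The median of the members lay above that of their length class in the shorter class and below it in the longer; these differences were not tested. Their mRNAs were also shorter (median 908 bases against 3008) and had fewer exons (median 4 against 9). The letters GGACT, a common form of the sequence at which N6-methyladenosine is placed, were missing from the principal mRNA of 18 of the 37 members, against 8.19% of all protein-coding genes tested, and the median number per kilobase was 0.57 against 1.05. The shares without GGACT were not matched for mRNA length.

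**Figure D2:**
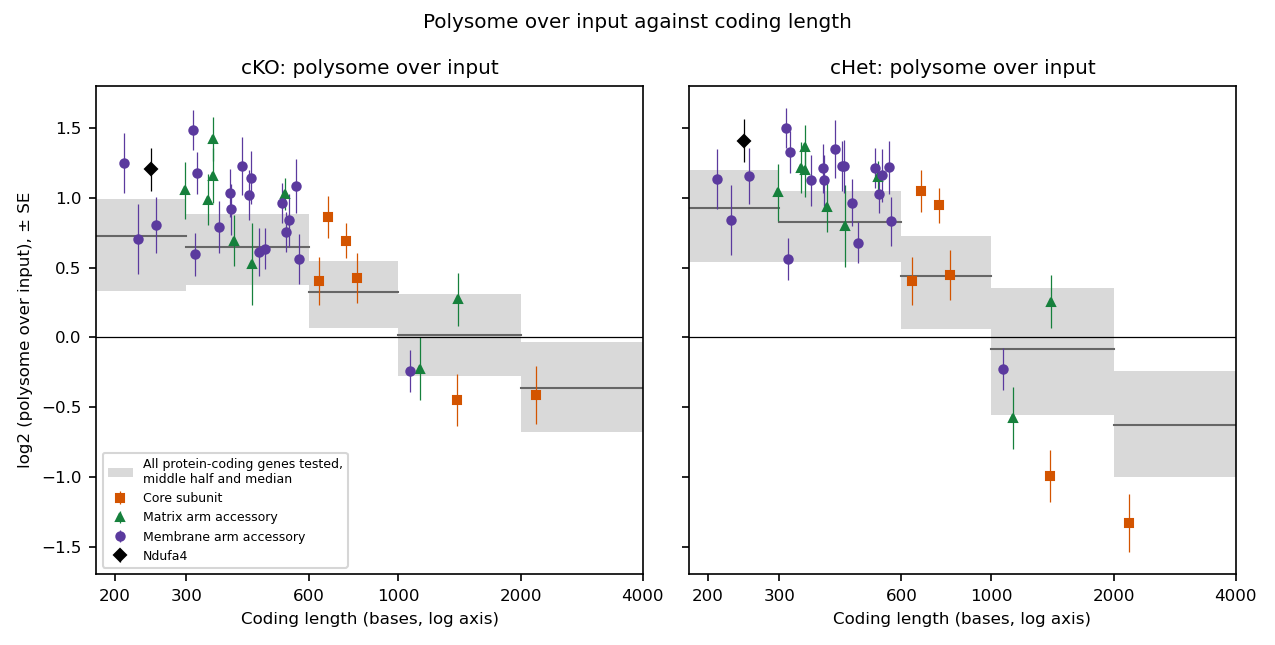
Log2 difference of polysome over input RNA against coding length in bases (log axis) for complex I members in cKO (left) and cHet (right); points are fitted differences with their SE, coloured by role, and grey bands and lines give the interquartile range and the median of all protein-coding genes tested in 5 length classes. Members under 600 bases sit above 0, and Ndufs1, the longest, lies at -0.41 in cKO and -1.33 in cHet.

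The polysome RNA was purified from the lysate sequenced as input, so the difference can be read lysate by lysate. Of the 37 members, 30 were higher on polysomes in all 6 lysates, 1 (Ndufs1) was lower in all 6, and 6 were mixed, among them Ndufa10, Ndufv1, Ndufa9, Ndufa12 and Ndufv3. The median member differed by 0.76, 0.93 and 0.81 in the cKO lysates and by 1.09, 1.07 and 1.02 in the cHet lysates. The cKO medians all lay below the cHet medians. Over all genes tested, medians were -1.7e-05 to 0.10 in cKO and -0.01 to 0.04 in cHet. The quartiles over all genes were -0.30 and 0.36, -0.50 and 0.48, and -0.54 and 0.69 in cKO. In cHet they were -0.61 and 0.60, -0.57 and 0.56, and -0.60 and 0.56. The quartiles lay closer together in cKO replicates 1 and 2 than in any cHet lysate, but not in cKO replicate 3. The part of this in the member medians was not tested. Signs in all 6 lysates were not counted over all genes. An alternative fit, chosen after seeing the data, left out cKO input replicate 3 and cKO polysome replicate 1. There 30 members were higher and 2 lower in cKO, as were 3974 and 4038 of the 13472 genes tested. The 2 lower members were Ndufs1 at -0.83 and Ndufv1 at -0.57 (adjusted p = 0.000273 and 0.00340). The median member stood at 1.07 in cKO beside 1.05 in cHet. Without cKO polysome replicate 1 alone, 4 members were lower in cKO (Ndufs1, Ndufv1, Ndufa9 and Ndufa10), as were 2981 of 13559 genes. In cHet, whose fit shares the estimate of spread, 30 members were then higher and 4 lower, and 31 and 4 without both libraries. Over all genes, the cHet counts were 4015 and 3803, and 4844 and 4814 without both libraries.

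**Figure D3:**
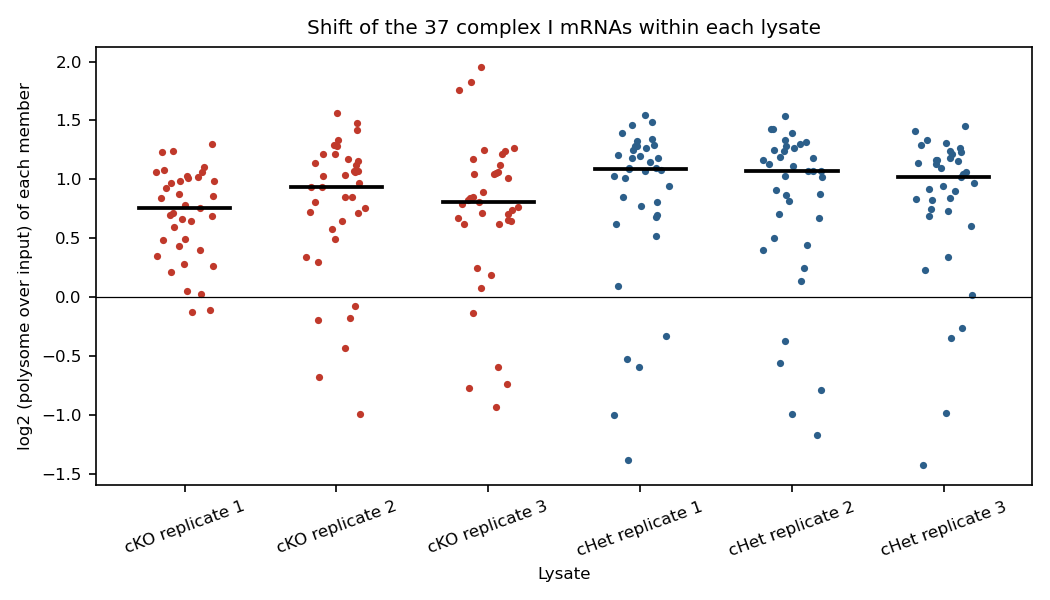
Log2 difference of polysome over input RNA of each of the 37 members (points) within each lysate, for cKO replicates 1 to 3 and cHet replicates 1 to 3; black bars are medians and horizontal positions are scattered for legibility. Medians are 0.76 to 0.93 in cKO and 1.02 to 1.09 in cHet, and the lowest point of each cHet lysate is Ndufs1.

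In input RNA no complex I mRNA was called between the genotypes. By limma, 0 of 37 were called in either direction, as were 0% of the 12977 genes tested. At an unadjusted p under 0.05 there were 0 higher and 2 lower (10.4% and 4.53% of genes), and voom on recovered reads also called 0. The members lay slightly below 0, with 28 of 37 negative (51.4% of genes) and a median of -0.08 beside -0.01 over all genes. The members with the smallest p were Ndufs1, at -0.53 (95% interval -1.03 to -0.03, adjusted p = 0.308), and Ndufa5, at -0.41 (-0.80 to -0.02, adjusted p = 0.310). Ndufa9 (-0.24), Ndufs4 (-0.22) and Ndufv2 (-0.20) came next, with adjusted p from 0.361 to 0.419. In these genes and in Ndufb2, 6 members in all, every cKO library lay below every cHet library (1619 of the 12977 genes tested), in 0 members above (2187 of 12977, 16.9%), and in 31 the genotypes overlapped.

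The highest was Ndufa12 at 0.62 (adjusted p = 0.437), whose cKO input replicate 2 was high, as given above. Ndufc2 at 0.16, Ndufa3 at 0.13, Ndufb11 at 0.09 and Ndufb5 at 0.08 followed, with adjusted p from 0.656 to 0.783. All 7 core subunits were negative, with a median of -0.18. Of the members, 24 had their highest input value in cKO input replicate 3, the library that stood apart, and 5 their lowest. Without it, the median was -0.21 and 1 member was called, Ndufs8 at -0.39 (adjusted p = 0.0473), while 249 of all genes were called higher and 77 lower. In 23 members the lowest input value was that of cKO input replicate 1, and without that library the median was 0.006 and 0 were called, so the sign of the median rested on that library. It was -0.13 with protein-coding scaling and -0.12 with quantile normalization. The counts of members highest or lowest in a library were not made over all genes.

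On polysomes, too, none of the members was called. By limma 0 of 37 were higher or lower, as were 0% of the 12877 genes tested, 0 and 5 passed an unadjusted p under 0.05 (12.9% and 8.37% of genes), and voom called 0. The median was -0.19 beside 0.02 over all genes, and 29 of 37 were negative (47.1% of genes). In 8 members every cKO library lay below every cHet library (13.5% of genes), and in 1, Ndufs1, above (17.9%). The 5 with an unadjusted p under 0.05 were Ndufv2, Ndufa11, Ndufb10, Ndufb4 and Ndufs4.

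Ndufv2 had 71.5, 69.0 and 73.5 FPKM on cKO polysomes and 105, 83.2 and 107 FPKM on cHet polysomes. The groups did not overlap, and the log2 difference was -0.46 (95% interval -0.82 to -0.10, adjusted p = 0.169). Ndufa11, a membrane arm accessory, had 77.5, 98.3 and 107 FPKM on cKO polysomes and 135, 124 and 132 FPKM on cHet polysomes. Here too every cKO value was lower, by -0.48 (-0.86 to -0.09, adjusted p = 0.174). Ndufb10 and Ndufb4, membrane arm accessories, stood at -0.43 and -0.42 (adjusted p = 0.177 for both), and Ndufs4 at -0.34 (adjusted p = 0.232).

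Of the members above 0, those with the smallest p were mostly long ones. Ndufs1 stood at 0.39 (adjusted p = 0.263), Ndufv1 at 0.36 (adjusted p = 0.323), Ndufa12 at 0.34 (adjusted p = 0.305) and Ndufa9 at 0.12. In Ndufs1, Ndufv1, Ndufa9 and Ndufa10 the highest polysome value of all 6 libraries was that of cKO polysome replicate 1, and in 23 members the lowest value was. This was not counted over all genes. Without cKO polysome replicate 1 the median was -0.11, 0 members were called and Ndufa9 turned to -0.16. Without cKO polysome replicate 3 the median was -0.34, also with 0 called. None of the markers of other cells listed here was called between genotypes, but the summed levels of 2 lists did not overlap. Macrophage markers (11 listed, none at 0) summed to 73.1 to 102 FPKM in cKO and 55.2 to 61.5 FPKM in cHet polysomes, and to 58.9 to 83.7 FPKM in cKO and 46.6 to 51.6 FPKM in cHet input. Epidermal markers (12 listed, none at 0) summed to 242 to 462 FPKM in cKO and 185 to 193 FPKM in cHet polysomes, and to 402 to 443 FPKM in cKO and 337 to 348 FPKM in cHet input. The sums of endothelial, muscle and erythroid markers overlapped between genotypes in both fractions. Endothelial markers (9 listed, none at 0) summed to 54.6 to 84.2 FPKM in cKO and 63.04 to 70.9 FPKM in cHet polysomes, and to 65.2 to 95.97 FPKM in cKO and 73.1 to 81.7 FPKM in cHet input. Muscle markers (9 listed, none at 0) summed to 356 to 517 FPKM in cKO and 331 to 378 FPKM in cHet polysomes, and to 478 to 599 FPKM in cKO and 457 to 544 FPKM in cHet input. All 8 erythroid markers had negative differences in both fractions. Their part in the genotype values was not tested.

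**Figure D4:**
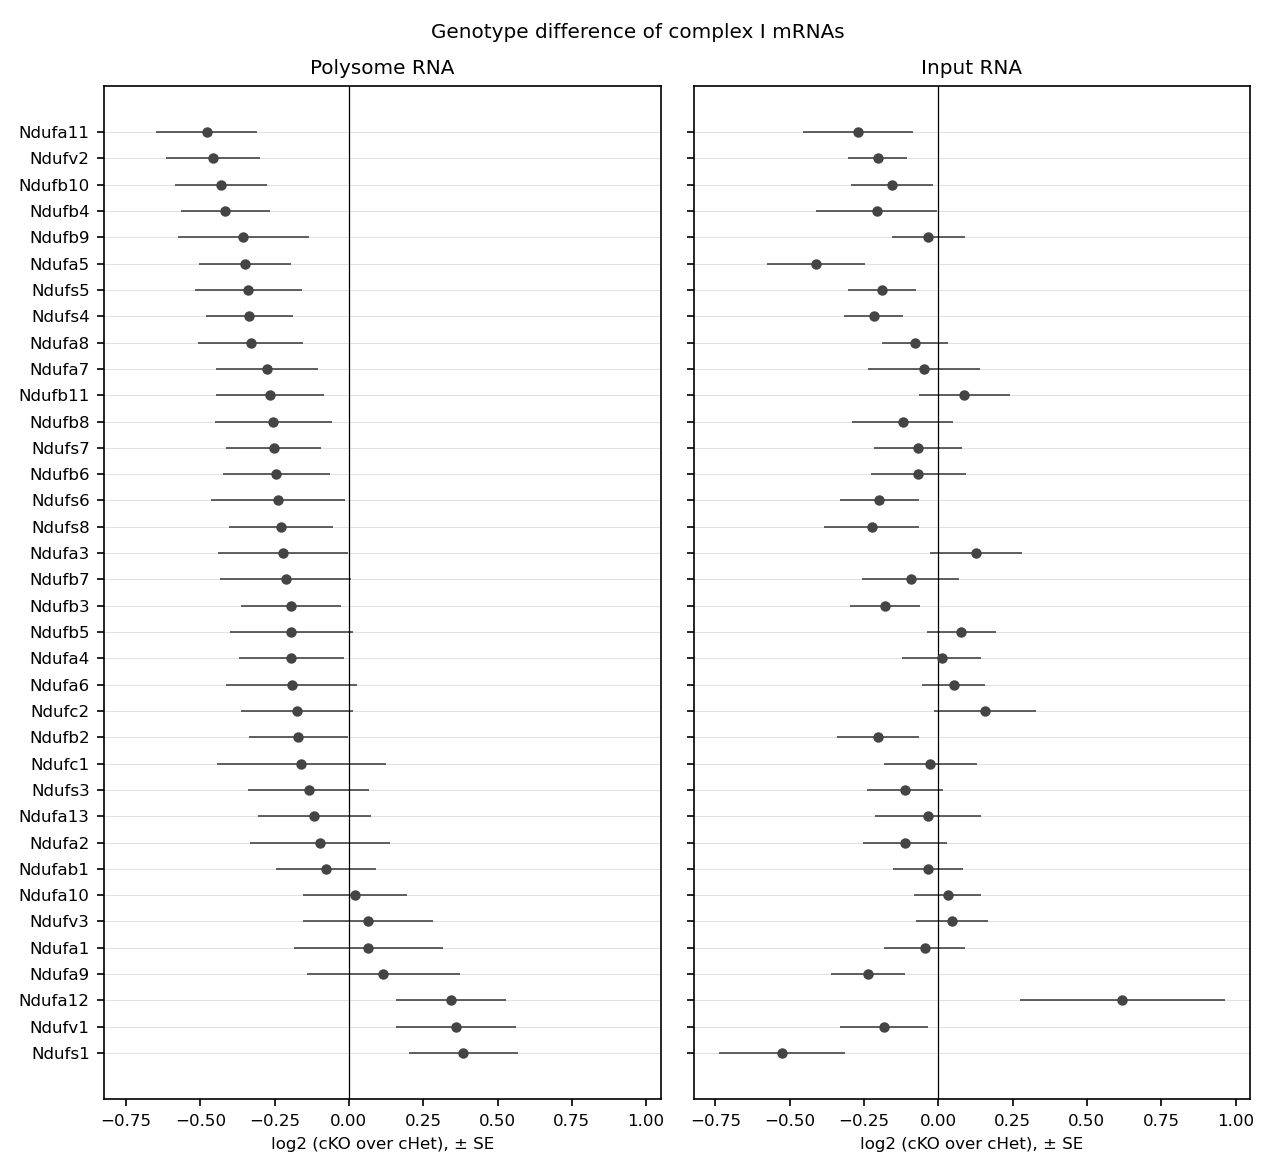
Log2 difference of cKO over cHet for complex I members in polysome RNA (left, which sets the order) and input RNA (right), with SE; the vertical line marks 0. Most points lie left of 0 on polysomes, Ndufs1, Ndufv1 and Ndufa12 lie furthest right there, and Ndufs1 lies furthest left in input.

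The change in the polysome to input difference between genotypes was tested directly, as the interaction over all 12 libraries. By limma 0 of 37 members were called, as were 0% of 13610 genes; at an unadjusted p under 0.05 there were 1 higher and 0 lower (2.92% and 1.76% of genes), and voom called 0. The median over members was -0.13 and over all genes 0.02, and 28 of 37 were negative (47.4% of genes). The member past the unadjusted threshold was Ndufs1, at 0.91 (95% interval 0.27 to 1.55, adjusted p = 0.790). It was followed by Ndufv1 at 0.54, Ndufa9 at 0.35 and Ndufa1 at 0.11. Of the negative members, those with the smallest p were Ndufb11 at -0.35, Ndufc2 at -0.33, Ndufb10 at -0.28, Ndufv2 at -0.25 and Ndufa8 at -0.25, all at an adjusted p of 0.790.

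Members and other genes of the same coding length can be set side by side here too. Between 300 and 600 bases the median interaction was -0.19 for the members and -0.20 for protein-coding genes, and between 1000 and 2000 bases 0.27 and 0.10. Leaving out single libraries, the median over members ran from -0.26 without cKO polysome replicate 3 and -0.23 without cKO input replicate 1 to -0.05 without cKO polysome replicate 1 and -0.011 without cKO input replicate 3. It was -0.04 with protein-coding scaling, -0.04 with quantile normalization and -0.08 by voom. Without the 2 libraries that stood apart it turned to 0.08, Ndufs1 stood at 0.50 (adjusted p = 0.725) and 0 members were called. All 3 lysates of cKO lay above all 3 of cHet in 2 members, Ndufs1 and Ndufv1 (8.68% of genes), and below in 7, Ndufb11, Ndufa8, Ndufc2, Ndufb6, Ndufb10, Ndufa7 and Ndufb9 (9.72%). The interaction and the genotype comparisons share libraries.

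The 7 core subunits encoded by mitochondrial DNA, which are translated on mitochondrial ribosomes, ran opposite to the nuclear members. Of these, 6 of 7 were called lower on polysomes in each genotype and none higher. The share of all genes called lower was 15.6% in cKO and 25.9% in cHet. The median log2 difference of the 7 was -2.83 in cKO and -2.64 in cHet. mt-Nd1 differed by -5.39 in cKO and -5.19 in cHet (adjusted p = 3.94e-06 and 5.19e-06). All mitochondrial reads made up 0.344% to 1.13% of polysome libraries and 2.30% to 4.85% of input libraries. Between genotypes, none of the 7 was called in input or on polysomes, where mt-Nd2 stood at 0.53 and 0.13.

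Assembly factors help build the complex and are not part of it. Of 17 tested, 8 were called higher and 1 lower on polysomes in cKO, and 10 higher and 1 lower in cHet. Over all genes tested, the shares were 16.9% and 15.6% in cKO, and 27.3% and 25.9% in cHet. Dmac1, a factor for the distal membrane arm, differed by 1.13 in cKO and 1.36 in cHet (adjusted p = 0.00114 and 0.000166), and Ndufaf2, a paralog of Ndufa12, by 0.97 and 1.24 (adjusted p = 0.000583 and 9.54e-05). Acad9, an acyl-CoA dehydrogenase that doubles as an assembly factor, was the lower one, at -0.82 and -1.39 (adjusted p = 0.0128 and 0.000366).

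Between genotypes no assembly factor was called, and 2 came nearest. Tmem186 had 7.57, 8.31 and 7.77 FPKM on cKO polysomes and 13.3, 12.6 and 13.7 FPKM on cHet polysomes (log2 -0.74, adjusted p = 0.0780). Ndufaf1 had 20.4, 17.1 and 19.3 FPKM in cKO input and 11.9, 11.4 and 13.0 FPKM in cHet input (log2 0.64, adjusted p = 0.141). In both the genotypes did not overlap, with cKO lower for Tmem186 and higher for Ndufaf1.

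Among 9 tested regulators of mitochondrial biogenesis, 3 were called higher and 2 lower on polysomes in cKO, and 4 higher and 3 lower in cHet. Of all genes tested, 16.9% were called higher and 15.6% lower in cKO, and 27.3% and 25.9% in cHet. Tfb2m, a mitochondrial transcription factor, differed by 0.96 and 0.81 and Polrmt, the mitochondrial RNA polymerase, by -1.02 and -1.27. Nrf1, whose motif is shown above, was not called, at 0.16 in cKO and 0.19 in cHet, and no regulator was called between genotypes. Subunits of the other respiratory complexes were counted in the same way. In cKO, 2 of 4 tested subunits of complex II were called higher, 5 of 9 of complex III, 9 of 10 of complex IV and 10 of 15 of complex V. In cHet the counts were 3, 5, 9 and 11. In the same order, 1, 1, 0 and 1 were called lower in cKO, and 1, 2, 0 and 2 in cHet. The shares over all genes are those given above. Complex I was not tested against these complexes.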

How the data were processed

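The authors deposited FPKM values for 54532 genes in 12 libraries, with gene lengths and coordinates. HISAT2 2.0.5, featureCounts 1.5.0-p3 and mm10 are named in the submitters' processing notes, and library selection and strandedness are not given in the sources used here. FPKM multiplied by gene length returned whole reads within 0.01 for 100% of values, which gives the depth. Median-ratio size factors of the deposited values differ from 1 by at most 6.81e-10, so the FPKM were already scaled that way across libraries.

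Analysis used limma 3.58.1 in R 4.3.3 (lmFit, eBayes with trend) on log2(FPKM + 0.1), for genes of at least 1 FPKM in 3 fitted libraries. This scale understates changes of low genes. Genotypes were compared on the 6 libraries of a fraction. Polysome against input and the interaction were fitted on 12 libraries with 4 group means. The smallest exact permutation p for 3 against 3 libraries is 0.1. Members and gene lists were chosen with earlier results of these data known. Genes named per comparison are up to 10 called in a direction by size, or up to 5 by smallest p where none was called, with the core subunits, Ndufa4 and the 3 highest and 3 lowest means. Mouse gene structures came from GENCODE M21 and start-site sequences from RefSeq GRCm38.p6; 4 members had no window. Values of 1 member are not reported here on their own; counts and medians are over all 37. Fits were tested on simulated data. Same-numbered polysome and input libraries come from the same lysate by the design text, and their deviations from group means correlated at 0.05 to 0.25.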

Additional observations from a re-analysis of the deposited data

How the results depend on the processing

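Of 321 counts, medians and sums recomputed under the alternatives, 304 stayed within the margin set for their kind, and of 1213 values of named members 1184 kept direction and call, 11 gained and 10 lost the call and 8 changed sign. Members called lower on cKO polysomes numbered 1 with protein-coding scaling, 2 with quantile normalization, 2 without the 2 libraries that stood apart, and 0 to 4 when leaving out each library. In the same order, 2704, 2144, 4038 and 1252 to 2981 of all genes tested were called lower. The cKO median was 0.60 with quantile normalization, 1.07 without the 2 libraries, and 0.67 to 1.01 leaving out each. In cHet, 5 were lower with protein-coding scaling and 5 with quantile normalization, with medians of 0.82 and 0.74, and the ratio of summed polysome to input FPKM was 1.72 with protein-coding scaling, which moved the median of all genes to -0.07 in cKO and -0.21 in cHet. Of all genes, 4578 were called lower in cHet with protein-coding scaling and 3302 with quantile normalization. Members called lower in cKO input ranged 0 to 1 leaving out each library. The interaction median turned to 0.079 without the 2 libraries. Signs turned when leaving out single libraries for Ndufc2 (-0.034 to 0.28), Ndufa3 (-0.034 to 0.24) and Ndufb11 (-0.067 to 0.19) between genotypes in input, Ndufa9 (-0.16 to 0.30) on polysomes, and Ndufa1 (-0.023 to 0.35) in the interaction. With the replicate block (lysate), 28 members were higher and 0 lower in cKO, 30 and 2 in cHet, and 0 in the interaction. Replicate numbers do not pair the genotypes; with a block on them 0 members were called, and 31 genes higher and 11 lower on polysomes (0 without it). A fit of all 12 libraries called 76 genes higher and 6 lower in input and 146 and 38 on polysomes, and 0 members. Voom on recovered reads called 29 and 0 in cKO and 31 and 3 in cHet. The causes were not tested. Precision is limited by 3 libraries a group.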
